A study of Homo sapiens with 6 samples.

Results

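Long noncoding RNAs (lncRNAs) are transcripts that are processed much like messenger RNAs but encode no known protein. Those described here were TMEM132D-AS1, OVAAL, HOTAIR, H19, MEG3, NEAT1, MALAT1, GAS5, PVT1 and MIR31HG. They were read with all probe sets that the platform annotation gives to one of these genes alone. This gave 8 of the 19775 genes with a probe set of their own, and 29 of the 54613 probe sets that are not controls. MALAT1 had 12 of them, MEG3 had 10, TMEM132D-AS1 had 2, and OVAAL, HOTAIR, GAS5, PVT1 and MIR31HG had 1 each. H19 and NEAT1 had 0, because the 2 probe sets that name H19 and the 9 that name NEAT1 also name a microRNA, so no value is given for either gene. The 4 further probe sets that name GAS5 and the 4 that name PVT1 also name other genes and were set aside. The genes were chosen by their signals in the comparison below, with the differences between the groups already known, so these differences are described and no test of them is given.

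Total RNA was measured on 6 one-colour Affymetrix arrays. The 3 parental samples were untransfected MDA-MB-231, an established line of human breast tumour epithelial cells. The 3 others were labelled 231wCFry, a puromycin-selected stable clone of that line carrying a rat Cop Fry cDNA of 10791 base pairs in its wild-type form, and they are called the samples labelled Fry clone. The clone is 1 line, the labels describe no clone with an empty vector, and passage numbers varied without being given per sample. The design has no other clone to compare it with. Human FRY was read by 4 probe sets at no more than 9.8 on any array, which does not check a rat transgene. Its paralog FRYL fell from 278 ± 13.5 to 107 ± 12.7 (SD, n = 3, limma adjusted p = 5.27e-06). The comparison asks how introduced Fry, a scaffold for NDR-family kinases, alters transcripts in these cells. The p-values measure only the spread between these samples, which may be technical.

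The samples labelled Fry clone went against their label in most of the listed markers of cell type. Of 7 genes listed for breast tumour epithelial cells, 5 fell, CD44 rose and VIM did not pass. VIM read 3463 ± 200 and 3954 ± 521 (SD, n = 3), and KRT18 fell from 2992 ± 191 to 1507 ± 56.5 and stayed bright. The simple-epithelium keratin KRT19 fell from 1669 ± 43.5 (SD, n = 3) to 1.1 ± 0.35 and was then not above background. The summed signal of that list lay between 15132 and 16040 in the parental samples and between 8452 and 10261 in the others. Of 7 measured melanocyte and neural crest genes, 6 rose and PMEL did not pass, with sums of 384.6 to 469 and 5005 to 5470. Both marker lists were written with earlier results of these data known, so nothing is tested by the counts. Over all 13606 genes tested, 33.9% rose and 32.9% fell. The neural crest regulator SOX10, the glial marker S100B and the melanocyte antigen MLANA were not above background in the parental samples. SOX10, S100B, MLANA and TYR had parental means under the signal of 5.62 that the fit required. They entered it through the samples labelled Fry clone alone and could only be called as rises. KRT19 and EPCAM entered it through the parental samples alone and could only be called as falls. RNA quality, read from GAPDH control probe sets as 3' over 5' signal, gave ratios of 1.36 to 1.39 for parental arrays against 1.24 to 1.33. Fry, the choice of 1 clone and any difference in the identity of the samples lie in the same contrast and cannot be told apart. Every result below rests on these samples, so none can be given without them.

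lncRNAs act in several ways. Some build or occupy nuclear bodies, some bind protein complexes that modify chromatin, some are imprinted and made from 1 parental chromosome, and some are host transcripts from which small RNAs are cut. Many are made in few cell types, so their levels often follow the identity of a cell. MALAT1 and NEAT1 are nuclear transcripts that most cells make in large amounts, HOTAIR and MIR31HG are made in some tissues and tumours, and H19 and MEG3 are imprinted.

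Signals came from the MAS5 algorithm, have arbitrary units and were compared on log2(signal + 16). Each array holds 27 probe sets for bacterial genes that were not added, and the highest of them read 2.5 to 4.9. A group is called not above background where no array of it exceeded that array's level. The median of all probe sets was 10.4 to 12.1, so a signal between the 2 levels is close to the noise. Of the 29 probe sets, 18 had a mean high enough to enter the fit, and 11 (the 10 of MEG3 and that of MIR31HG) did not. At a Benjamini-Hochberg adjusted p under 0.05 in limma, 5 of the 18 were called higher and 10 lower, where 62.4% of all 32768 probe sets tested were called, 30.2% as higher and 32.2% as lower. Since the genes were picked with these values known, nothing is read from that count. The groups did not overlap in 17 of the 29, where 46.4% of all probe sets that are not controls did not overlap.

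**Figure D1:**
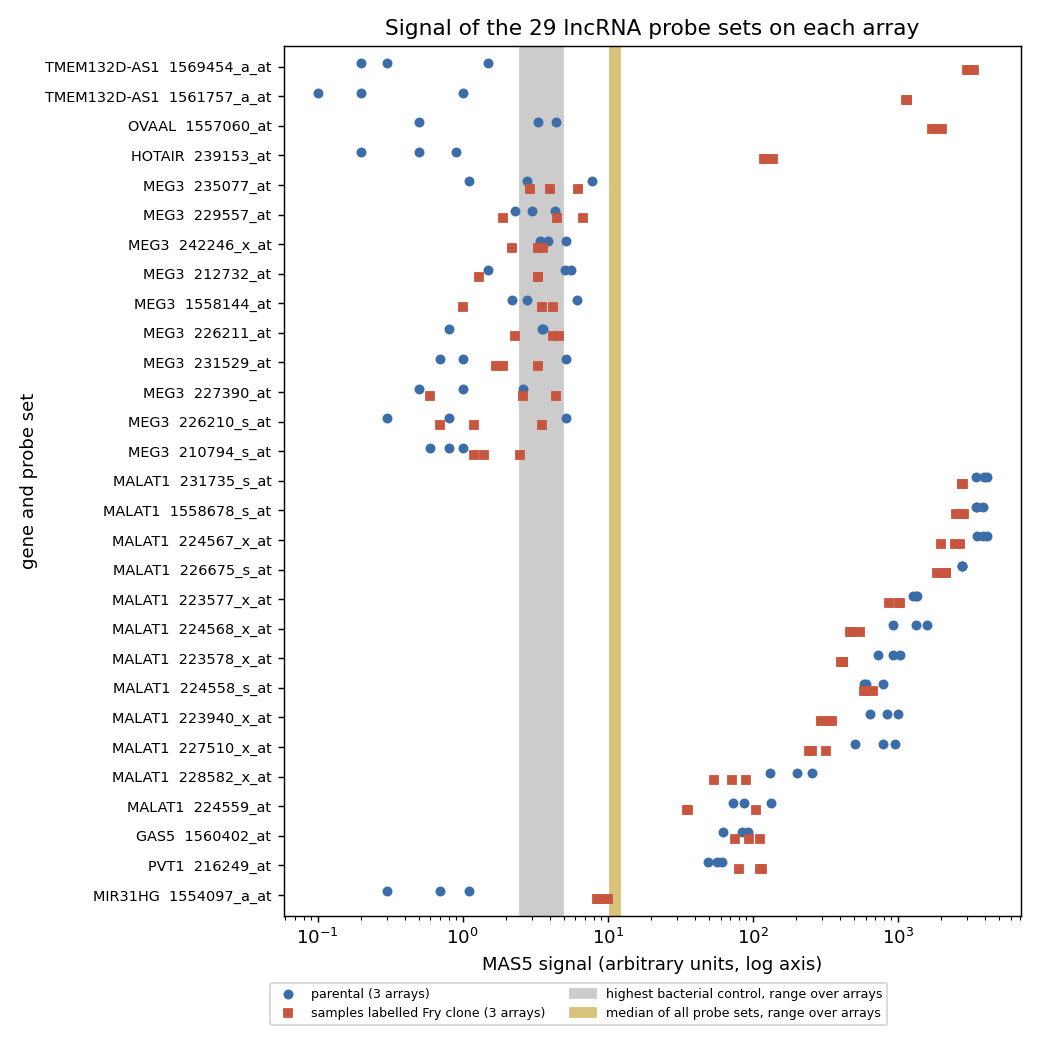
MAS5 signal (x axis, log scale, arbitrary units) of each of the 29 lncRNA probe sets (y axis) on the 3 parental arrays (circles) and the 3 arrays labelled Fry clone (squares). The grey band is the highest bacterial control (2.5 to 4.9 over the arrays) and the yellow band the median of all probe sets (10.4 to 12.1). TMEM132D-AS1, OVAAL and HOTAIR lay far apart between the groups, MEG3 lay under the yellow band throughout, and most MALAT1 probe sets were lower in the samples labelled Fry clone.

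TMEM132D-AS1 is transcribed antisense to TMEM132D, a gene for a membrane protein of the nervous system, and no established function of it is stated here. On its brighter probe set (1569454_a_at) the parental arrays read 0.3, 0.2 and 1.5, and the arrays labelled Fry clone read 3168.9, 2984.5 and 3366.4. The parental arrays all lay below the bacterial controls and the other 3 were bright, with a level at least 925-fold higher against those controls. On the second (1561757_a_at) the readings were 0.2, 0.1 and 1 against 1157.9, 1143.1 and 1152.3, a spread of 7.47 (SD, n = 3) around a mean of 1151 in the second group. Against the bacterial controls this second probe set was at least 336-fold higher. Both probe sets therefore placed the transcript at background in one group and at a high, even level in the other.

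The genes around TMEM132D-AS1 did not share its level. The brightest probe set of TMEM132D itself stood at 0.57 ± 0.64 (SD, n = 3) for parental arrays and 0.60 ± 0.61 for those labelled Fry clone. TMEM132D-AS2, a second antisense transcript of that gene, stood at 0.27 ± 0.058 and 0.40 ± 0.10. GLT1D1 before the pair and FZD10-AS1 after it were dim too, and none of these 4 neighbours read over 8 on any array. None entered the fit, so no test of them is given.

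OVAAL, which the gene table also lists as RMEL2, was first described as an lncRNA gained in ovarian tumours. Its probe set read 4.4, 0.5 and 3.3 in the parental samples and 1832.2, 1734.1 and 2015.7 in those labelled Fry clone. The means were 2.73 ± 2.01 and 1861 ± 143, with 1 parental array above the bacterial controls, so no bound on the fold is given. Some of the nearest measured neighbours went the other way. XPR1, a phosphate exporter, fell from 456 ± 24.2 to 208 ± 24.7 (log2 difference -1.08, SE 0.11, adjusted p = 1.72e-05) and ACBD6, an acyl-CoA binding protein, from 530.2 ± 16.7 to 317 ± 10.8 (-0.72, adjusted p = 6.69e-05). LHX4-AS1, at 21.8 ± 5.41 and 26.2 ± 6.82, and KIAA1614, also next to OVAAL, did not pass.

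HOTAIR is made from the HOXC cluster of homeobox genes, antisense to HOXC11, and is known to bind the Polycomb complex PRC2. It read 0.9, 0.5 and 0.2 in the parental samples and 124.4, 138.4 and 119 in those labelled Fry clone. All parental readings lay under the bacterial controls, and against these HOTAIR was at least 37.1-fold higher. The HOXC genes were tested apart from HOTAIR. Of the 9 measured, 8 entered the fit and all 8 rose, with a median log2 difference of 2.89. Over all 13606 genes tested, 33.9% rose and the median was 0.0083. HOXC8, HOXC9, HOXC10, HOXC11 and HOXC13 had parental means under the signal of 5.62 that the fit required. They entered it through the samples labelled Fry clone alone and could only be called as rises. HOXC4, HOXC5 and HOXC6 lay above it in both groups. The list was written with earlier results known, so nothing is read from the count. HOXC11 rose from 1.5 ± 1.41 to 237 ± 15.2 (3.85, SE 0.10, adjusted p = 1.95e-09) and HOXC10 from 2.23 ± 1.76 to 762 ± 37.6 (5.42, adjusted p = 3.43e-10). HOXC13 rose from 1.37 ± 1.32 to 165 ± 26.5 and HOXC4 from 31.9 ± 2.48 to 587 ± 83.9. HOXC12, which lies between HOXC13 and HOTAIR, was the exception, at 3.03 ± 3.80 and 4.8 ± 2.63. HOXC-AS3, another lncRNA of the cluster, was too dim to enter the fit and read 1.3, 0.7 and 4 against 9.4, 7.2 and 4.9.

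**Figure D2:**
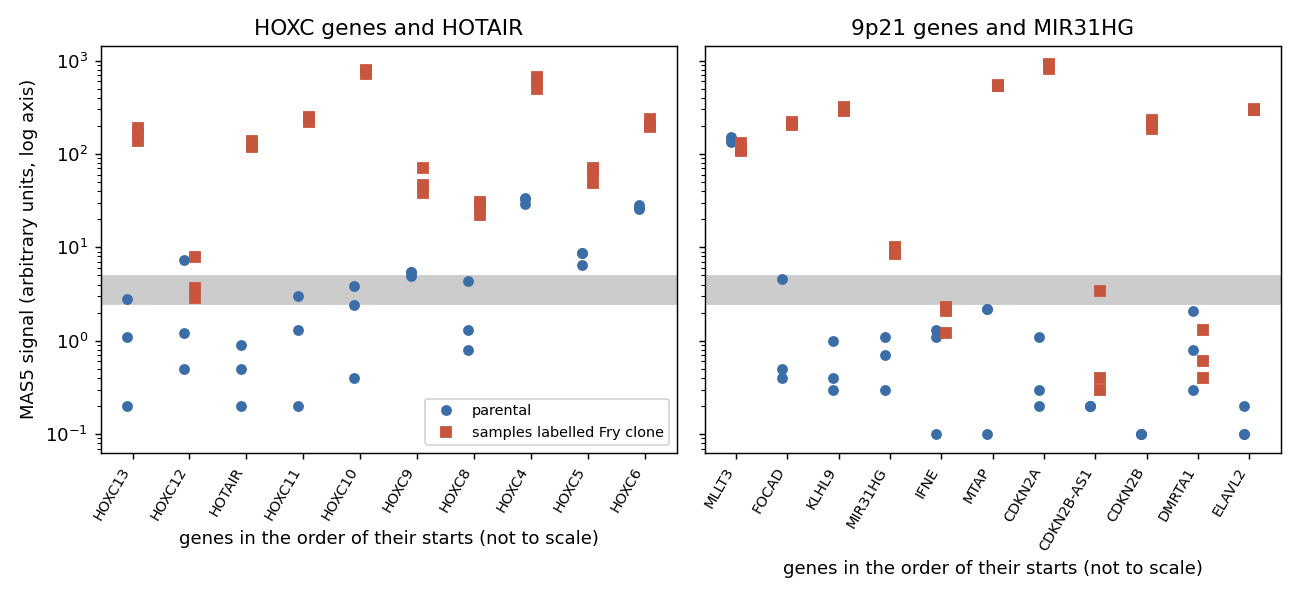
MAS5 signal (y axis, log scale, arbitrary units) of HOTAIR among the HOXC genes and of MIR31HG among genes of 9p21, in the order of gene starts and not to scale, with each of the 3 parental arrays as a circle and each of the 3 arrays labelled Fry clone as a square. The grey band is the bacterial control level (2.5 to 4.9), and a signal of 0 is drawn at 0.1. HOXC12 among the HOXC genes, and IFNE, CDKN2B-AS1 and DMRTA1 in the second panel, stayed near or below that band in both groups, and MLLT3 was bright in both.

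HOTAIR is thought to silence genes of the HOXD cluster in trans. Of 5 HOXD genes in the fit, 3 rose and 2 fell, where 66.9% of all genes tested were called. HOXD8, HOXD9 and HOXD13 rose, as from 4.03 ± 3.41 to 78.3 ± 9.40 for HOXD9 (2.24, adjusted p = 6.77e-07). HOXD4 fell from 96.2 ± 14.5 to 6.5 ± 2.35 (-2.32, adjusted p = 2.45e-07) and HOXD1 from 34.7 ± 11.5 to 0.27 ± 0.21. The 3 rises entered the fit through the samples labelled Fry clone alone, and HOXD1 through the parental samples alone. Among proteins that act with HOTAIR, 6 of 8 fell and 1 rose, with a median log2 difference of -0.57, where 32.9% of all genes tested fell. JARID2, a PRC2 cofactor, fell from 1444 ± 83.7 to 347 ± 42.7 (-2.01, adjusted p = 3.07e-07) and EZH2, its methyltransferase, from 1106 ± 72.3 to 467 ± 17.9 (-1.21, adjusted p = 2.86e-06). SUZ12 and EED, also subunits of PRC2, fell by 0.58 and 0.54 on the log2 scale. RCOR1, a scaffold of the CoREST complex, fell from 707 ± 47.5 to 202 ± 31.7, and its demethylase KDM1A fell by 0.57 on the log2 scale. The histone chaperone RBBP4, a PRC2 subunit too, went the other way and rose from 561 ± 72.3 to 794 ± 70.0 (0.49, adjusted p = 0.0051). REST, the repressor that recruits CoREST, read 428 ± 58.4 and 433 ± 15.0 and did not pass.

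MALAT1 is an abundant nuclear lncRNA that gathers in speckles, bodies rich in splicing factors, and in most cells it is among the most abundant of all transcripts. RefSeq gives promoters for 2 of its starts (GRCh38.p14, plus strand, chr11:65497488-65497787 and chr11:65498795-65499094), which are shown because the probe sets below disagree and do not say which start was used. Each window runs from 250 bases before the start to 50 after it, and capitals mark any match, on either strand, to ACAAT (the core of SOX motifs), to the E-box CANNTG (of which CACGTG and the variant CATGTG are special cases), or to the TATA box TATAAA.
MALAT1, upstream start: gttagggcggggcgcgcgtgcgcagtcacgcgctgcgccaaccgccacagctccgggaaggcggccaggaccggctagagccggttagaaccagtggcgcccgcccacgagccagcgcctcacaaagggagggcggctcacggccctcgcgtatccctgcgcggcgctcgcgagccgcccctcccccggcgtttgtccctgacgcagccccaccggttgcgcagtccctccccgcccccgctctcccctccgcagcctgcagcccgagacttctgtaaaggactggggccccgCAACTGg
MALAT1, downstream start: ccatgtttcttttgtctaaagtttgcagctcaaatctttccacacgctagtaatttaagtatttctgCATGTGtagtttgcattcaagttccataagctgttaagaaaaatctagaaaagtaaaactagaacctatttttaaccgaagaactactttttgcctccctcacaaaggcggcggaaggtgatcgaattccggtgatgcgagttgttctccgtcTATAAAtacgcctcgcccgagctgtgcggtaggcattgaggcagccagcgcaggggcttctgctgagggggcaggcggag
The upstream window had a GC content of 73.7% with 37 CG dinucleotides, and the downstream one 46% with 14. The median over 35116 RefSeq promoters of this length was 58.7% and 14. TATAAA was found only in the downstream window, at position -30 from the start, and 11.5% of all promoters hold it. The upstream window held CANNTG, which 68.7% of promoters hold, and the downstream one held it as CATGTG, which 11.1% hold. ACAAT, found in 27.4% of promoters, and CACGTG, found in 7.26%, were in neither window.

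The mean signal of MALAT1 was lower in the samples labelled Fry clone on all 12 probe sets, and the groups did not overlap on 10 of them. The difference ranged from -0.07 to -1.37 on the log2 scale, with a median of -0.70, so the size depends on which probe set is read. The brightest probe set on the log scale, 231735_s_at, read 3917.1, 4093.2 and 3478.4 in the parental samples and 2783.4, 2817.3 and 2788.1 in those labelled Fry clone, a parental level 1.37-fold higher. The smallest difference was that of 224558_s_at, at 786, 600.7 and 588.1 against 678.9, 586 and 607.9, where the groups overlapped. The largest was that of 227510_x_at, at 960.1, 796.6 and 508 against 321.3, 255 and 246.1, which is 2.75-fold. The second probe set with overlapping groups was 224559_at, at 134.4, 87.5 and 72.6 against 105, 35.2 and 35.6.

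The MALAT1 probe sets also differed in their spread within a group. On 226675_s_at the parental arrays read 2754.2, 2782.5 and 2761.4, within an SD of 14.7. On 224568_x_at they read 1584.9, 1329.1 and 931, an SD of 330, against 549.9, 464.6 and 476.3 in the samples labelled Fry clone. The third parental array was the lowest of its group on 10 of the 12 probe sets and the first was the highest on 8. Probe sets of the _x_ type, which hold probes that can match other transcripts, gave parental levels 1.36-fold to 2.75-fold higher over 7 probe sets. The 4 of the _s_ type, whose probes can match several transcripts of a family, gave 1.05-fold to 1.37-fold. What part the type of probe set plays in these differences was not tested. The GAPDH ratio of 1.24 to 1.33 against 1.36 to 1.39 stands beside them too, while the beta-actin ratio overlapped between the groups.

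**Figure D3:**
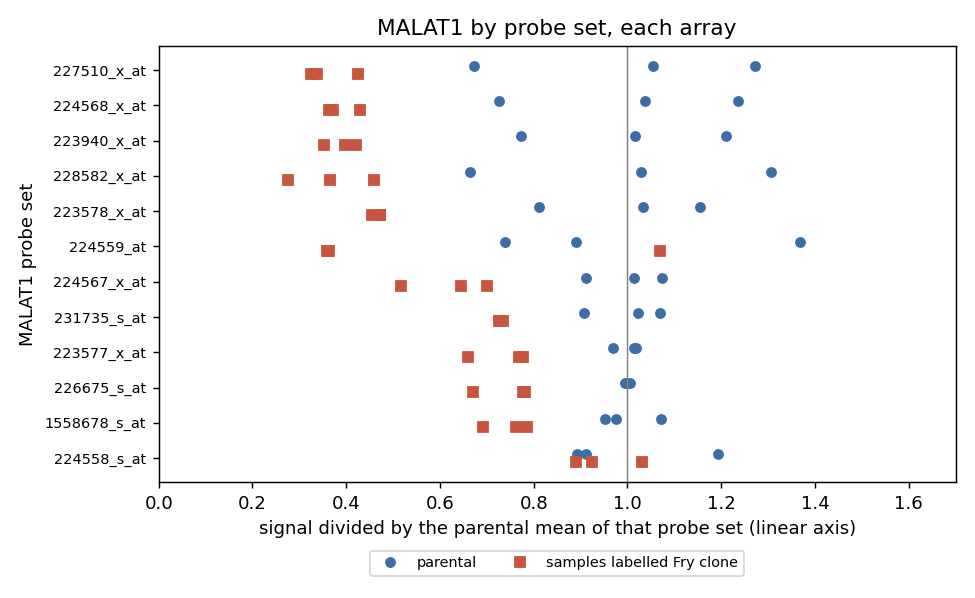
Signal of each MALAT1 probe set (y axis, ordered by difference) on each array, divided by the parental mean of that probe set (x axis, linear scale), with parental arrays as circles and arrays labelled Fry clone as squares. The groups overlap on 224558_s_at and 224559_at and are apart on the other 10, and on the 5 probe sets with the largest differences, all of the _x_ type, the third parental array is the lowest of its group.

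Most proteins of the nuclear bodies that MALAT1 and NEAT1 occupy did not pass. Of 7 speckle and MALAT1-binding proteins in the fit, 1 fell, 0 rose and 6 did not pass, a called share of 14.3% where 66.9% of all genes tested were called. The splicing coactivator SRRM1 fell from 1183 ± 40.5 to 932 ± 48.9 (-0.34, SE 0.09, adjusted p = 0.0078). The splicing factor SRSF1 read 4153 ± 130 and 3992 ± 430, and SON, a scaffold of speckles, 1534 ± 63.5 and 1529 ± 24.8. NEAT1 is the scaffold of paraspeckles, and of 13 paraspeckle proteins in the fit 4 fell, 1 rose and 8 did not pass. TAF15 fell from 217 ± 33.4 to 79.9 ± 2.22 (-1.27, adjusted p = 1.15e-05), HNRNPH3 from 1552 ± 22.1 to 1053 ± 76.1 and PSPC1, a core paraspeckle protein, from 383 ± 50.1 to 261 ± 28.0 (-0.52, adjusted p = 0.0043). NUDT21, a factor of 3' end processing, rose from 1077 ± 103 to 1709 ± 122 (0.66, adjusted p = 4.32e-04). The other core proteins NONO and SFPQ read 2962 ± 84.9 and 1960 ± 51.9 in the parental samples against 3040 ± 345 and 1838 ± 154, and did not pass. Of the genes next to MALAT1, SLC25A45 rose from 56.0 ± 10.7 to 302 ± 39.0 (2.14, adjusted p = 8.36e-07) and LTBP3 from 26.7 ± 5.77 to 56.6 ± 6.73, while FRMD8 and ZNRD2-DT did not pass.

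**Figure D4:**
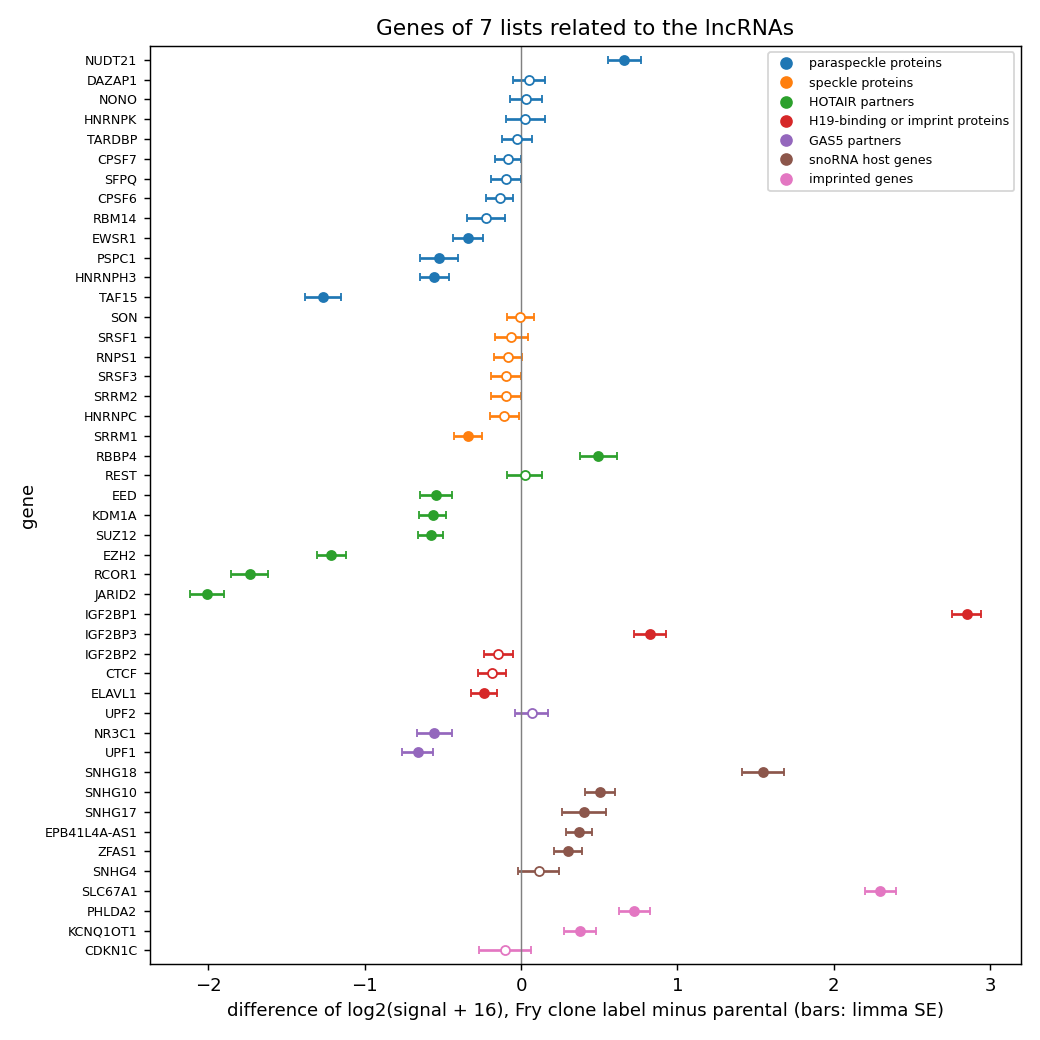
Difference of log2(signal + 16), samples labelled Fry clone minus parental (x axis), for each tested gene (y axis) of 7 lists of proteins, host genes and imprinted genes related to the lncRNAs, coloured by list. Bars are limma standard errors, filled points passed an adjusted p under 0.05 and open points did not. The 6 falling HOTAIR partners run from -0.54 to -2.01, and 6 of the 7 speckle proteins are open and close to 0.

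GAS5 is the host transcript of a set of small nucleolar RNAs, and its spliced RNA accumulates when growth stops. Its promoter is shown because its GC content is the lowest among the promoters printed, and GAS5 belongs to a class of host genes described below (GRCh38.p14, minus strand, chr1:173868996-173869295, capitals as above).
GAS5: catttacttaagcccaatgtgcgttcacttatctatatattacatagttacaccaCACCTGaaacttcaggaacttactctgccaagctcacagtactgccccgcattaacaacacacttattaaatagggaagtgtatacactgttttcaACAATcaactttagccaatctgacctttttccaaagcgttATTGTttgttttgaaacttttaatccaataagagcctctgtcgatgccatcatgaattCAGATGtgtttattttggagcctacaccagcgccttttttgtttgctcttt
The window had a GC content of 37.7% with 5 CG dinucleotides, 2 matches to ACAAT and 2 to CANNTG, and none to TATAAA. The only probe set given to GAS5 alone read 83.7, 61.9 and 93.2 in the parental samples and 112.3, 75.9 and 93.9 in those labelled Fry clone. The groups overlapped, with means of 79.6 ± 16 and 94.0 ± 18.2. Of 6 other snoRNA host genes in the fit, 5 rose and 0 fell, with a median log2 difference of 0.39. Over all genes tested, 33.9% rose and 66.9% were called. The list was written with earlier results known, so nothing is read from the count. SNHG18 rose from 25.2 ± 7.61 to 103 ± 9.99 (1.55, SE 0.14, adjusted p = 8.28e-06), EPB41L4A-AS1 from 906 ± 25.8 to 1174 ± 23.1 (0.37, adjusted p = 0.0038) and ZFAS1 from 2335 ± 24.2 to 2885 ± 199 (0.30, adjusted p = 0.016). SNHG10 rose from 36.4 ± 1.0 to 58.6 ± 6.70. A further 13 of the 20 host genes listed had no probe set of their own. Of the proteins tied to GAS5, UPF1, the helicase of nonsense-mediated decay that degrades GAS5 RNA, fell from 416 ± 16.8 to 258 ± 24.5 (-0.66, adjusted p = 2.65e-04). NR3C1, the glucocorticoid receptor that GAS5 can bind, fell from 861 ± 8.09 to 585 ± 77.4 (-0.55, adjusted p = 0.0017), and UPF2 did not pass. Beside GAS5 in the genome, CENPL, a centromere protein, fell from 428 ± 24.6 to 216 ± 17.7, and the dim GAS5-AS1 went from 11.2 ± 1.55 to 7.17 ± 0.68 (-0.23, limma adjusted p = 0.049).

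PVT1 is an lncRNA downstream of MYC that is often gained together with it in tumours. Its only probe set of its own read 61.1, 49.1 and 56.6 in the parental samples and 116.5, 80.8 and 111.9 in those labelled Fry clone. The groups did not overlap, at 55.6 ± 6.06 and 103 ± 19.4, a level 1.85-fold higher in the second. MYC, the transcription factor next to it, fell from 363 ± 62.5 to 109 ± 17.4 (-1.60, SE 0.15, adjusted p = 1.22e-05). The 3 other neighbours, CASC11, LINC02912 and LINC00824, read at most 7.9 on any array and did not enter the fit.

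MIR31HG is the host transcript of the microRNA miR-31 on 9p21 and lies among interferon genes beside MTAP and CDKN2A. MDA-MB-231 is known to carry a homozygous deletion at CDKN2A. The mature microRNA is shown because the transcript read here is its host, with the seed (bases 2 to 8) in capitals (RefSeq, GRCh38.p14, minus strand, chr9:21512158-21512178). The promoter of MIR31HG follows (minus strand, chr9:21559749-21560048, capitals as above).
hsa-miR-31-5p: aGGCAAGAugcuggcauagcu
MIR31HG: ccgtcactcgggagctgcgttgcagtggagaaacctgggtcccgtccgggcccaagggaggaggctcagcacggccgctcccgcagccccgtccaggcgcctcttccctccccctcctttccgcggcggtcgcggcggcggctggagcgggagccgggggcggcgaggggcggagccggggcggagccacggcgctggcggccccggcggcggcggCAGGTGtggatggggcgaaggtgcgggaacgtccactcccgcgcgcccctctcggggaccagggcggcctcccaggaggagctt
The window had a GC content of 77.7% and 39 CG dinucleotides, more than in 91.3% of RefSeq promoters, with 1 match to CANNTG at position -34 and none to ACAAT or TATAAA. No value of the mature microRNA is given here. MIR31HG read 0.3, 0.7 and 1.1 in the parental samples and 8.8, 8.4 and 10 in those labelled Fry clone. The groups did not overlap, but both lay below the median of all probe sets on every array, and against the bacterial controls the second was at least 2.64-fold higher.

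Genes on both sides of MIR31HG differed far more. Of 7 genes of 9p21 in the fit, 6 rose, 0 fell and 1 did not pass, with a median log2 difference of 4.27. Over all genes tested, 33.9% rose. The 6 had parental means of at most 1.83, under the signal of 5.62 that the fit required. They entered it through the samples labelled Fry clone alone and could only be called as rises, so nothing is read from the count. FOCAD and KLHL9, which lie before MIR31HG in the order of starts, rose from 1.83 ± 2.40 to 212 ± 6.53 (3.68, adjusted p = 5.02e-09) and from 0.57 ± 0.38 to 304 ± 13.0. MTAP, an enzyme of methionine salvage, rose from 1.5 ± 1.21 to 537 ± 12.7 (4.98, adjusted p = 3.31e-10) and CDKN2A, which encodes cell-cycle inhibitors, from 0.53 ± 0.49 to 874 ± 56.3 (5.75, adjusted p = 2.07e-10). CDKN2B rose from 0.067 ± 0.058 to 207 ± 21.1, and ELAVL2, the last in the order, from 0.13 ± 0.058 to 299 ± 4.05. In the parental samples KLHL9, MTAP, CDKN2A, CDKN2B and ELAVL2 were not above background. MLLT3, the first in the order, read 143 ± 8.40 and 118 ± 13.1 and did not pass (adjusted p = 0.056). CDKN2B-AS1, the lncRNA of that locus, read 0.2 on each parental array and 0.3, 3.4 and 0.4 on the others. IFNE, IFNA1, IFNA8 and DMRTA1 were not above background in either group.

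MEG3 is an imprinted lncRNA of 14q32, expressed from the maternal chromosome and often silent in tumours. All 10 of its probe sets lay below the median of all probe sets on all 6 arrays. Their readings ran from 0.3 to 7.8 in the parental samples and from 0.6 to 6.8 in those labelled Fry clone. The groups did not overlap on 1 of the 10, 210794_s_at, at 0.8, 0.6 and 1 against 2.5, 1.2 and 1.4, and none of these readings was above the bacterial controls. The other readings of MEG3 did not exceed 7.8, under the median of the array, so a level of MEG3 could not be told from noise in either group. DLK1, its paternally expressed partner, stood at 3.93 ± 1.80 and 1.73 ± 0.67, MEG9 at 0.53 ± 0.45 and 1.33 ± 0.96, and DIO3 at 5.5 ± 2.50 and 5.17 ± 1.91, none of them in the fit.

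Imprinted genes were listed for 11p15, the region of H19, and for 14q32, but none of 14q32 entered the fit. Of the 4 in the fit, 3 rose and 0 fell, where 33.9% of all genes tested rose. This list too was written with earlier results known, so nothing is read from the count. SLC67A1, formerly SLC22A18, rose from 23.5 ± 2.78 to 178 ± 15.0 (2.30, SE 0.10, adjusted p = 6.56e-08), PHLDA2 from 599 ± 51.1 to 999 ± 59.1 (0.72, adjusted p = 1.61e-04) and the lncRNA KCNQ1OT1 from 14.3 ± 2.41 to 23.3 ± 3.01 (0.38, adjusted p = 0.0095). CDKN1C did not pass. Next to H19, the mitochondrial ribosomal gene MRPL23 rose from 450 ± 45.6 to 813 ± 57.8 (0.83, adjusted p = 1.01e-04), and IGF2-AS, INS and TNNT3 were dim. Of proteins that bind H19 or its control region, IGF2BP1 rose from 0.73 ± 0.21 to 105 ± 8.89 (2.85, adjusted p = 8.34e-09) and IGF2BP3 from 823 ± 76.4 to 1467 ± 83.6, both being RNA-binding proteins of fetal tissues. IGF2BP1 entered the fit through the samples labelled Fry clone alone and could only be called as a rise. ELAVL1 fell by 0.24 on the log2 scale, and IGF2BP2 and the insulator protein CTCF did not pass.

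Counted over all members, the neighbour genes did not differ as one. Of 36 neighbours, 18 entered the fit, 6 rose, 5 fell and 7 did not pass, a called share of 61.1% beside 66.9% of all genes tested. Over all the lists above of proteins, host genes, clusters and loci, 66 genes were tested, some of them also neighbours, and 29 rose, 16 fell and 21 did not pass, a share of 68.2%. Of the rises, 8 were HOXC genes and 6 were genes of 9p21, and most of these entered the fit through the samples labelled Fry clone alone.

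The other lncRNA genes on the array were read for comparison. The gene table types 2649 further genes with a probe set of their own as lncRNA, and 936 of them entered the fit. Of these 422 rose, 194 fell and 320 did not pass, a called share of 65.8% beside 66.9% of all genes. The median log2 difference was 0.23, beside 0.0083 over all genes. At a log2 difference of at least 3, 20 rose and 9 fell, or 3.1%, beside 4.03% of all genes tested. TMEM132D-AS1 and OVAAL differed by 7.58 and 6.65, but they were picked with these values known, so they are not ranked against the others.

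Among the largest rises was SLC67A1-AS, which is antisense to SLC67A1 in the imprinted 11p15 region. It rose from 18.1 ± 1.56 to 908 ± 29.3 (4.76, SE 0.09, adjusted p = 3.31e-10). PART1 rose from 3.23 ± 2.23 to 500.3 ± 70.3, PRR7-AS1 from 16.2 ± 1.48 to 725 ± 68.5 and LINC00839 from 8.7 ± 4.04 to 471 ± 34.7. MSC-AS1, antisense to the repressor gene MSC, rose from 0.40 ± 0.36 to 279.5 ± 16.1, at least 81.5-fold against the bacterial controls. LINC00326, LINC02985 and MIR3681HG complete the first 8, and the adjusted p of these 8 was at most 3.10e-08. The first fall was LOXL1-AS1, antisense to a collagen cross-linking enzyme gene, from 371 ± 14.1 to 1.4 ± 0.75 (-4.48, SE 0.09, adjusted p = 4.12e-10). LINC01224 fell from 525 ± 33.2 to 22.9 ± 3.59, LINC00261, a neighbour of the endoderm factor gene FOXA2, from 156 ± 43.4 to 0.70 ± 0.62, and DSP-AS1, antisense to the desmoplakin gene, from 158 ± 10.1 to 3.07 ± 2.21. LINC01806, CCDST, LINC00857 and LOC105376805 complete these 8, with adjusted p at most 1.66e-07. PART1, MSC-AS1 and LINC00326 entered the fit through the samples labelled Fry clone alone and could only be called as rises. LOXL1-AS1, LINC01806, CCDST, LINC00261, LINC00857 and DSP-AS1 entered it through the parental samples alone and could only be called as falls.

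Of 28 well-studied lncRNAs in the fit, 11 rose, 10 fell and 7 did not pass. The called share was 75%, beside 66.9% of all genes tested and 65.8% of the other lncRNA genes. The list was written with earlier results known, so nothing is read from the count. BANCR, first described as an lncRNA switched on by mutant BRAF in melanoma cells, rose from 1.7 ± 0.17 to 175 ± 59.0 (3.38, adjusted p = 7.23e-07). MIR99AHG, a host of let-7 and miR-125 family microRNAs, rose from 3.87 ± 1.53 to 240.1 ± 34.4 (3.68, adjusted p = 8.45e-09). BANCR, MIR99AHG, TINCR, MIAT and HOXA11-AS entered the fit through the samples labelled Fry clone alone and could only be called as rises. CASC2 entered it through the parental samples alone and could only be called as a fall. HAGLR, an antisense lncRNA of the HOXD cluster, fell from 223 ± 30.7 to 10.6 ± 2.28 (-3.16, adjusted p = 2.43e-08), and UCA1, an lncRNA of urothelial and other carcinomas, from 309 ± 58.1 to 47.0 ± 6.82 (-2.36, adjusted p = 6.18e-07). SAMMSON, an lncRNA of melanoma under SOX10, read 0.70 ± 0.50 and 3.43 ± 1.31 and did not enter the fit. In these samples SOX10 stood at 0.43 ± 0.32 and 1395 ± 22.3. The part of cell identity in any of these differences was not tested.

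**Figure D5:**
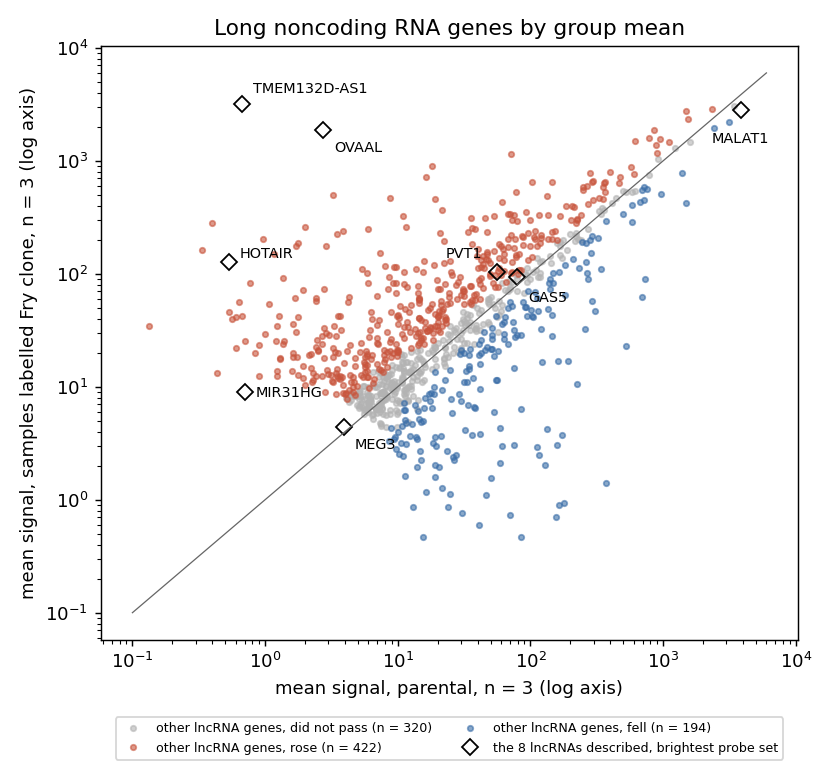
Mean signal of 936 other lncRNA genes and of the 8 lncRNAs described (diamonds, brightest probe set) in the parental samples (x axis) and in the samples labelled Fry clone (y axis), n = 3 each, both axes logarithmic and in arbitrary units. The 422 genes that rose and 194 that fell are coloured, and the line marks equal signal. TMEM132D-AS1 and OVAAL, picked with their values known, lie at the upper left, and MALAT1 lies at the bright end near the line.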

How the data were processed

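Total RNA from cultures at 70% confluence was amplified from 40 ng per sample and labelled with biotin, per the labels' protocols. The deposited values are linear signal intensities. Per the submitters' processing notes the authors used MAS5, whose version and scaling target the sources used here do not give. MAS5 subtracts mismatch signal, so values near 0 give unstable ratios. Among the 54613 non-control probe sets, 41091 had 1 gene symbol, 1801 had several and 11721 had none here. The RefSeq table held 41037 of the first kind.

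Tests ran on log2(signal + 16), a scale that shrinks differences between dim values. Probe sets at or above the 40th percentile of the mean (a signal of 5.62) entered limma 3.58.1 (lmFit, eBayes; R 4.3.3) with all 6 arrays, with Benjamini-Hochberg adjustment over all 32768. A gene's brightest probe set by mean log2 value stood for it, and neighbours were the 2 nearest measured genes on each side. Named genes were the members, the neighbours, up to 4 genes with the smallest p in each list, the 8 largest rises and falls among other lncRNA genes, FRY, FRYL and the markers. Some further list genes were named after their values were seen. A fold given as at least a value compares the mean log2 signal of the bright group with the higher of the bacterial control level and the dim reading itself. The members and lists were chosen with earlier results of these data known. Pearson's correlation across probe sets was 0.994 to 0.996 within groups and 0.922 to 0.924 between them, and at most 2.15% of values were identical in any pair of arrays. On simulated data with 200 of 32768 probe sets changed, the fit recovered 84% of log2 changes of 1 and 99% of changes of 2. In the data 62.4% of probe sets were called, a far larger share, so these rates need not hold there. Promoter and microRNA sequences were those of RefSeq on GRCh38.p14, and 5 of the 10 genes had a promoter there. Alternatives covered the pseudocount, the filter, quantile normalization, the replicate number as a block, probe set types, the choice of probe set and leaving out each array.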

Additional observations from a re-analysis of the deposited data

How the results depend on the processing

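No called lncRNA probe set changed direction under any alternative, and GAS5 stayed higher by 0.06 to 0.33. The uncalled MALAT1 probe set 224558_s_at ran from -0.14 to 0.07. Of 366 differences recomputed, 343 moved by less than 1 SD between replicates. Most of the 23 others came from the pseudocount, as with HOTAIR (1.57 to 6.41) and TMEM132D-AS1 (5.64 to 11.0 on its brighter probe set). The median over the 12 probe sets of MALAT1 differed by -0.85, against -0.45 on its brightest. Of 55 counts recomputed, 3 moved by over 1.5 times. With a 60th percentile filter 320 of 411 other lncRNA genes were called, where fewer were tested. Without probe sets ending in _x_at or _s_at 13016 of 20842 probe sets were called, again with fewer tested. Under that setting 6 of 14 neighbours were called, against 11 of 18 in the main fit, so their share fell as well. Leaving out one array gave 18648 to 19612 probe sets, 571 to 623 other lncRNA genes, 10 to 11 neighbours and 42 to 44 genes of the lists, HOXC, HOXD and 9p21 genes included. With the replicate number as a block 20770 probe sets, 627 other lncRNA genes, 10 neighbours and 45 genes of those lists were called. Deviations of same-numbered samples correlated at 0.07, 0.07 and 0.19, and the first parental sample correlated best with the second of the other group, so the numbers were not taken as pairs. The 3 arrays per group and signals near background limit MIR31HG and MEG3 most.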

Other observations

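Rises outnumbered falls among the other lncRNA genes, where they were even over the array. Of the called lncRNA genes 68.5% rose, beside 50.7% of all called genes, and the share lay between 67.9% and 71% over all alternatives run. In the brighter part, from the median signal of tested probe sets (88.2) upward, 125 lncRNA genes rose and 49 fell (71.8% rises), beside 3120 and 3137 of all genes. Below it, 297 rose and 145 fell (67.2%), beside 1496 and 1346. By name, 149 antisense transcripts rose and 75 fell, 95 genes named LINC rose and 49 fell, and 64 divergent, intronic or overlapping transcripts rose and 19 fell. Hosts of small RNAs were more even, at 9 and 7 of 22 tested. GAPDH 3' over 5' signal, 1.24 to 1.33 in samples labelled Fry clone against 1.36 to 1.39, moved with the groups, and its part in this pattern was not tested.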
